A study of Mus musculus with 12 samples.

Results

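The Sox developmental factors described here are 10 genes of the SRY-related HMG-box family, Sox1, Sox2, Sox8, Sox9, Sox10, Sox11, Sox14, Sox17, Sox18 and Sox21, out of the 21887 protein-coding genes that RefSeq places on the mouse chromosomes. They were chosen by name, with earlier results of these data known. Their values are the bases that peaks of H3K27me3 and H3K4me3 covered within 10 kb of the gene span, together with the widest peak reaching into that window. ChIP-seq, which counts DNA bound to a marked histone, was run on Lin-cKit+ bone marrow cells, a fraction rich in blood stem and progenitor cells, from Ints11 conditional knockout mice (KO, Mx1Cre+ with floxed Ints11 alleles; KO_399 and KO_401) and from WT littermates (WT_407 and WT_409), all of strain C57BL/6. All mice had received poly(I:C), and the cells were sorted 4 days later. Mx1Cre is switched on by the interferon response that poly(I:C) evokes, in many cell types and not only in blood cells. Neither the Mx1Cre status of the WT littermates nor ages, pooling of mice or the extent of deletion is stated in the labels. Each mouse gave 1 list of peaks per mark, 8 lists in all. The numbers in the library names were read as mice, as the series design gives 2 mice per genotype.

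Sox proteins bind a short AT-rich DNA motif through the HMG box and act as switches of cell fate in the embryo. Sox1 and Sox2 maintain neural progenitors, and Sox2 also belongs to the core pluripotency circuit. Most Sox genes are silent in blood, where Polycomb repressive complex 2 marks the chromatin of such genes with H3K27me3, while H3K4me3 marks active or poised promoters. A region that carries both marks is called bivalent, although in a population of cells the marks may lie on different cells or alleles.

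All 10 Sox genes carried H3K27me3 in all 4 libraries, against 21.2% of all protein-coding genes (33.7% in any library), and the covered length was smaller in the KO libraries. Summed over the 10 windows, H3K27me3 covered 84035 bp in KO_399 and 114700 bp in KO_401, against 131771 bp in WT_407 and 130403 bp in WT_409. The KO mean was 75.8% of the WT mean (99368 ± 21683 bp in KO and 131087 ± 967 bp in WT, SD, n = 2 each). The value was 87.5% without KO_399 and 64.1% without KO_401. In such bulk samples fewer cells carrying a mark, less of it per cell and weaker enrichment in the KO libraries cannot be told apart. H3K4me3 was sparse at the same genes, with a peak in the window of 4 of the 10 in any library.

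The H3K27me3 lists held 6542 and 7653 peaks in KO_399 and KO_401 and 11930 and 9838 in WT_407 and WT_409, and covered 15.2, 23.1, 34.5 and 31.5 Mb in that order. The H3K4me3 lists held 27676, 25090, 25145 and 26279 peaks in KO_399, KO_401, WT_407 and WT_409, and covered 44.5, 36.7, 37.0 and 38.6 Mb. Depth was read from the most frequent background at the summits, which was 3.30 and 3.67 reads in KO and 3.09 and 3.15 in WT for H3K27me3, and 2.65, 1.93, 2.23 and 1.94 in KO_399, KO_401, WT_407 and WT_409 for H3K4me3. Every deposited fold was above 5, which at these backgrounds needs 19.4 to 22.4 reads for H3K27me3 and 13.6 to 17.2 for H3K4me3. A site without a listed peak is therefore not shown to lack the mark. Of 10 progenitor markers, 8 in each KO library and 8 and 9 in WT_407 and WT_409 had H3K4me3 within 2 kb of a gene end. WT_409 stood apart, with H3K4me3 at all 5 B lymphoid and all 5 erythroid markers, against 4, 2 and 2 B lymphoid and 2, 2 and 2 erythroid markers in KO_399, KO_401 and WT_407. KO_399, the library with the longest H3K4me3 list, also stood apart. It had H3K4me3 at all 5 stromal markers (4497 bp), against 2, 3 and 2 of them (1189, 2182 and 1770 bp) in KO_401, WT_407 and WT_409. It also had H3K4me3 at 2 neural and glial markers, against 1 in each of the other 3. The part of either library's markers in the results below was not tested.

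The start sites of 6 members (Sox1, Sox2, Sox8, Sox11, Sox14 and Sox21) were listed in RefSeq for GRCm38.p6, the assembly of mm10. The 250 bases before the start are shown for 2 genes with H3K27me3 and no H3K4me3 peak in any library (Sox2 and Sox11) and for the 2 with an H3K4me3 peak over the start in at least 1 library (Sox8 and Sox21), from 5′ to 3′ on the strand of the gene, with CG dinucleotides in capitals.
Sox2, chr3:34649745-34649994, plus strand: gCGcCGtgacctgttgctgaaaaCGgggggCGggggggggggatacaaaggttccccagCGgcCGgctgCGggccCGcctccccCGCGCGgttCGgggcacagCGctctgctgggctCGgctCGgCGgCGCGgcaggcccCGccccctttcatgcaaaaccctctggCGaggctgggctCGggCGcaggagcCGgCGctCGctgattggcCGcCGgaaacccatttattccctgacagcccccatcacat
Sox11, chr12:27342719-27342968, minus strand: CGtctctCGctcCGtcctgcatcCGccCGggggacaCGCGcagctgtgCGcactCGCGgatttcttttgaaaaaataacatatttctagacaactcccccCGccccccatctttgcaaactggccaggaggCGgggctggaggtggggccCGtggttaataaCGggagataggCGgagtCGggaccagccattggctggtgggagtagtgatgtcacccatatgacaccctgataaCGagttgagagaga
Sox8, chr17:25570687-25570936, minus strand: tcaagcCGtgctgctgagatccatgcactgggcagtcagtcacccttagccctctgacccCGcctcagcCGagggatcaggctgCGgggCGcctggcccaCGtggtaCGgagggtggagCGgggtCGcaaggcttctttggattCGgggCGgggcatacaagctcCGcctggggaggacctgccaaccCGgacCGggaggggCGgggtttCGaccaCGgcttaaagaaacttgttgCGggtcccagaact
Sox21, chr14:118237031-118237280, minus strand: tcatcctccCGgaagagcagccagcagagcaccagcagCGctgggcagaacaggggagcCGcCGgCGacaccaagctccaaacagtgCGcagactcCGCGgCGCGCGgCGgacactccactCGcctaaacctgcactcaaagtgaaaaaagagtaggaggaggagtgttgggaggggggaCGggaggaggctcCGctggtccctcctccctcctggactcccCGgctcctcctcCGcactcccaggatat
CG dinucleotides were frequent at all 6 listed starts, with 29 at Sox1, 27 at Sox2, 23 at Sox14, 18 at Sox8, 17 at Sox11 and 17 at Sox21, against a median of 6 over the 32851 promoters of the table. The share of all promoters with at least as many was 6.78% for Sox1 and 23.5% for Sox11 and Sox21. GC content was 58.0% to 72.0%, against a median of 52.4%. The pair with H3K4me3 over the start thus did not stand above the others in CG number. The Sox core motif, searched as ACAATG or ACAAAG on both strands, occurred once, in the Sox2 sequence, and in 25.2% of all promoters. The letters TATAAA on the forward strand were in none of the 6, and in 7.59% of all promoters.

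The first comparison asked how deletion of Ints11, the catalytic subunit of the RNA-cleaving Integrator complex, changed H3K27me3 at these genes. At 9 of the 10 genes each KO library had fewer covered bases than each WT library. Over all genes with H3K27me3 in any library this held for 71.2% (5249 of 7375), and over those with it in all 4 libraries for 82.7% (3839 of 4644), so the count lies near the background. More bases in both KO libraries were found at none of the 10 and at none of the 7375 (0.0%). The median KO value was 72.5% of WT over the 10 genes (55.8% to 88.8%) and 66.7% over the 4644 genes. Each of the 9 single differences had an exact permutation p of 0.333 (two-sided, n = 2 each), the smallest that 2 against 2 libraries can give.

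**Figure D1:**
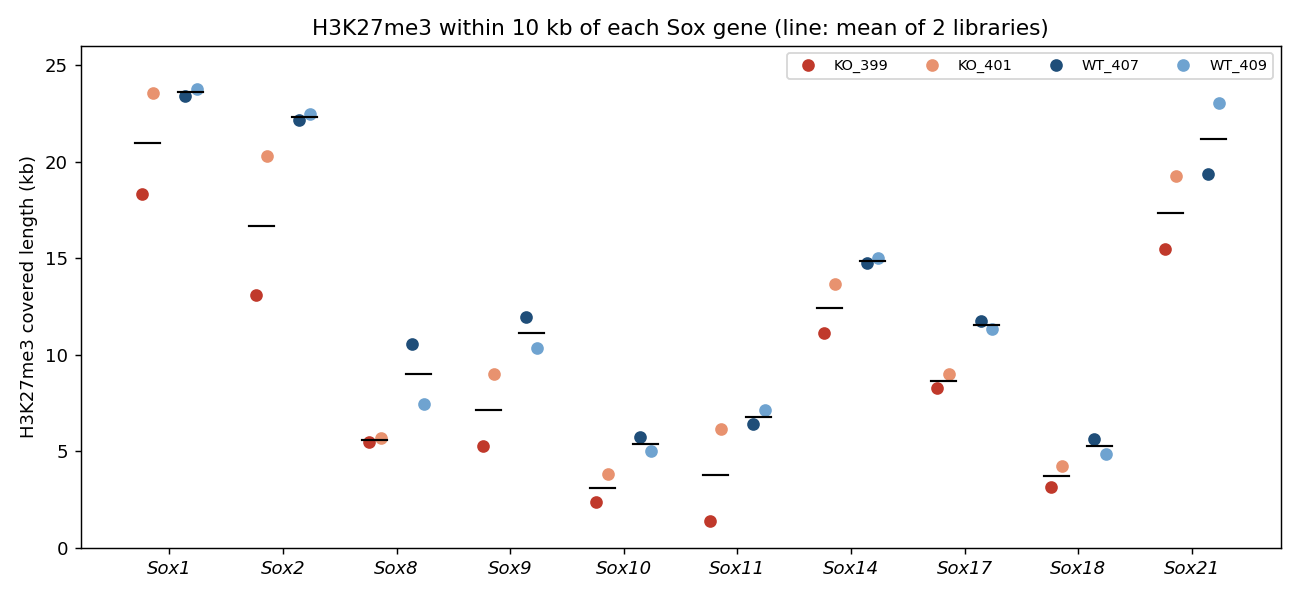
H3K27me3 covered length in kb within 10 kb of each gene span, 1 point per library with KO left of WT, and a line at the mean of 2 libraries. KO_399 lies lowest at all 10 genes, and the KO and WT points overlap at Sox1 alone.

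Of the neural SoxB1 genes, Sox2 had fewer bases in both KO libraries and Sox1 did not. At Sox2 (chromosome 3, 34649995 to 34652461, plus strand, as all positions in mm10) H3K27me3 spanned 13095 bp in KO_399 and 20294 bp in KO_401, against 22176 bp in WT_407 and 22467 bp in WT_409, where the mark filled the 22467 bp window. The difference was -5627 bp, which was -2028 bp without KO_399, -9227 bp without KO_401 and -371 bp in a window of 2 kb, where the genotypes overlapped. Sox1 (chromosome 8, 12395519 to 12399555) had 18346 and 23570 bp in KO_399 and KO_401, against 23407 and 23792 bp in WT_407 and WT_409. KO_401 lay between the WT libraries there, so the groups overlapped (exact permutation p = 0.667, n = 2 each), and the difference of -2642 bp came to -29.5 bp without KO_399 and -5254 bp without KO_401. The window caps both genes: the Sox1 peaks reached 12962 and 14393 bp below the gene in KO, against 15409 and 15739 bp in WT. Measured between their outer edges, the Sox1 peaks spanned 21826 and 28602 bp in KO, against 29561 and 30620 bp in WT. The overlap at Sox1 thus holds for covered bases inside the window. Both genes lie inside long noncoding transcripts, Sox1ot and Sox2ot, so the mark cannot be assigned to the Sox gene alone.

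The SoxB2 genes Sox14 and Sox21, which act against SoxB1 factors in neuronal differentiation, had the mark over the whole gene in every library. Sox14 (chromosome 9, 99874106 to 99876170) had 11148 and 13687 bp in KO_399 and KO_401, against 14749 and 14996 bp in WT_407 and WT_409, a difference of -2455 bp (-1186 bp without KO_399, -3725 bp without KO_401, -103 bp within 2 kb). Sox21 (chromosome 14, 118233233 to 118237030) had 15472 and 19251 bp in KO_399 and KO_401, against 19359 and 23044 bp in WT_407 and WT_409. KO_401 and WT_407 differed by little at Sox21, and its difference of -3840 bp was -1951 bp without KO_399 and -1998 bp without WT_409. Within 2 kb it was -124 bp and the genotypes overlapped. Both gene spans were covered to 100% in every library, so covered bases could differ in the flanks alone and cannot show a change on the gene. The highest Sox21 summit of each library lay inside the gene. Its fold was 9.8 and 15.4 in KO_399 and KO_401, against 20.5 and 22.1 in WT_407 and WT_409. The noncoding gene Gm4675 overlaps the Sox21 span.

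At the SoxC gene Sox11, a factor of immature neurons, the size of the difference depended on KO_399. Coverage at Sox11 (chromosome 12, 27334268 to 27342718) was 1399 bp in KO_399 and 6168 bp in KO_401, against 6423 bp in WT_407 and 7137 bp in WT_409. Its KO mean of 55.8% of WT was the lowest of the 10, with an SD in KO of 3372 bp, and the difference of -2997 bp was -612 bp without KO_399 and -5381 bp without KO_401. In KO_399 the 1 remaining peak ended 2820 bp short of the Sox11 start, which peaks covered in the other 3 libraries.

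The SoxE genes had 4996 to 11967 bp of the mark in WT. Sox9, the master regulator of cartilage and of testis determination, had 5284 and 8978 bp in KO_399 and KO_401, against 11967 and 10332 bp in WT_407 and WT_409 (chromosome 11, 112782210 to 112787757; difference -4019 bp, and -2172 bp without KO_399). The upper end of the Sox9 span lay under a peak in both WT libraries and in neither KO library. Sox10, which directs neural crest cells to glia and melanocytes, had 2378 and 3825 bp in KO_399 and KO_401, against 5759 and 4996 bp in WT_407 and WT_409 (chromosome 15, 79154913 to 79164490). Both WT libraries had a second Sox10 peak inside the gene, of 1772 bp in WT_407 and 565 bp in WT_409, that was not listed in either KO library. Its fold was 7.1 in WT_407 and 5.5 in WT_409, where the lists keep folds above 5. A fold of 5 needed 20.5 and 22.4 reads in KO_399 and KO_401, against 19.4 and 19.8 in WT_407 and WT_409. The missing peak thus does not show that the mark was lost in KO. Sox8, which works with Sox9 in the testis, had 5501 and 5702 bp in KO_399 and KO_401, against 10536 and 7419 bp in WT_407 and WT_409 (chromosome 17, 25565893 to 25570686; difference -3376 bp, and -1818 bp without WT_407). At Sox8 the KO libraries lay close together, and the WT libraries were the more spread pair.

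The SoxF genes shape endoderm and blood vessels, and Sox17 is also known from fetal blood stem cells of the mouse. Sox17 (chromosome 1, 4490928 to 4497426) had 8250 and 8985 bp in KO_399 and KO_401, against 11751 and 11353 bp in WT_407 and WT_409. Its span was covered to 98.3% in KO_399 and in full in the other 3 libraries, while the domain reached 790 and 950 bp below the gene in KO_399 and KO_401, against 2914 and 2168 bp in WT_407 and WT_409. Above the gene it reached 1069 and 1536 bp in KO, against 2530 and 3257 bp in WT. Shorter flanks around a covered gene were thus seen on both sides of Sox17. Sox18, a factor of blood and lymph vessels, had 3162 and 4240 bp in KO_399 and KO_401, against 5644 and 4867 bp in WT_407 and WT_409 (chromosome 2, 181669837 to 181671640; difference -1555 bp, and -1016 bp without KO_399).

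The bases covered in both WT libraries were then sorted by their state in KO. Of the 122168 bp covered in both WT libraries over the 10 windows, 83401 bp (68.3%) were covered in both KO libraries and 10933 bp (8.95%) in neither. A further 27470 bp (22.5%) were covered in KO_401 alone and 364 bp (0.298%) in KO_399 alone. Over all H3K27me3 peaks of the genome these shares were 52.9%, 20.2%, 25.5% and 1.30% in that order. No base of the 10 windows was covered in both KO and neither WT library. Over the genome this held for 1914 bp of the 38564370 bp covered in any library, so its absence does not set the Sox genes apart. The share in both KO libraries ran from 21.8% at Sox11 to 79.1% at Sox1, and the share in neither from 1.57% at Sox1 to 26.4% at Sox10. KO_399, whose list was also the shortest of the 4, held almost no base that KO_401 lacked.

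**Figure D2:**
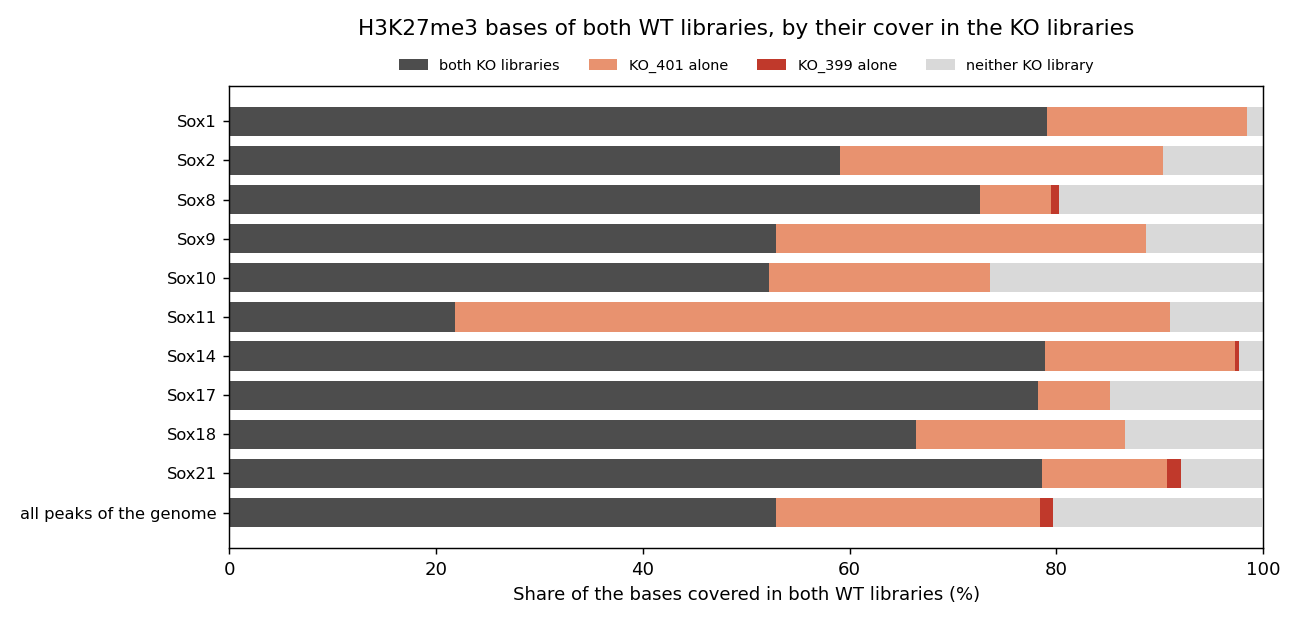
Bases covered by H3K27me3 in both WT libraries within 10 kb of each gene, as percent, split by whether both KO libraries, KO_401 alone, KO_399 alone or neither KO library covered them, with all peaks of the genome in the bottom row. The part covered in KO_401 alone is 69.2% at Sox11 and the part in KO_399 alone is at most 1.32% (Sox21).

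Gene spans and flanks were also summed apart. On the 10 gene spans H3K27me3 covered 28284 and 35211 bp in KO_399 and KO_401, against 38884 and 37536 bp in WT_407 and WT_409, or 83.1% of WT. In the flanks of 10 kb it covered 55751 and 79489 bp in KO, against 92887 and 92867 bp in WT, or 72.8% of WT. Summed over all protein-coding genes, the shares were 62.0% on spans and 59.7% in flanks. Spans that peaks filled in every library, as at Sox14 and Sox21, cannot show a difference in covered bases. Whether the gap between spans and flanks differs between the Sox genes and other genes was not tested.

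At some genes the same domain was listed as more pieces in KO than in WT. The widest H3K27me3 peak was shorter in each KO library than in each WT library at 8 of the 10, against 67.2% of the genes with the mark in any library and 77.0% of those with it in all 4. At Sox2 it measured 3751 bp in KO_399 and 12281 bp in KO_401, against 14170 bp in WT_407 and 28419 bp in WT_409. The Sox2 window was reached by 10 and 4 peaks in KO_399 and KO_401, against 3 and 1 in WT_407 and WT_409, and the gaps between peaks added up to 9372 and 2173 bp in KO, against 291 and 0 bp in WT. Sox2 thus had its most broken domain in KO_399.

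At Sox21 the widest peak measured 9306 and 9855 bp in KO_399 and KO_401, against 18632 and 18535 bp in WT_407 and WT_409, with little spread within each genotype. With gaps under 1 kb bridged, the longest Sox21 domain was 16926 and 20483 bp in KO, against 18632 and 25889 bp in WT, so KO_401 lay above WT_407 and the genotypes overlapped. Sox1 followed with 10940 and 16583 bp in KO, against 24329 and 25580 bp in WT, although its covered bases overlapped. Sox10 (2378 and 3825 bp in KO, against 3491 and 4431 bp in WT) and Sox18 (3162 and 4240 bp in KO, against 4880 and 4015 bp in WT) were the 2 genes where widest peaks overlapped between genotypes (exact permutation p = 0.667 for both, n = 2 each). The number of peaks was higher in both KO libraries at Sox2 and Sox14 and lower in both at Sox10 and Sox18, against 2.79% and 18.9% of all genes with the mark. Summed over the 10 genes the number did not separate the genotypes, at 32 and 24 in KO_399 and KO_401 against 26 and 19 in WT_407 and WT_409. Summed over the 10 genes with gaps bridged, an alternative chosen after seeing the data, the widest domains came to 69.0% of WT, against 53.0% for single peaks. With gaps bridged, 9 of the 10 genes, Sox10 and Sox18 among them, had a shorter widest domain in each KO library than in each WT library. No share over all genes was computed for bridged domains.

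**Figure D3:**
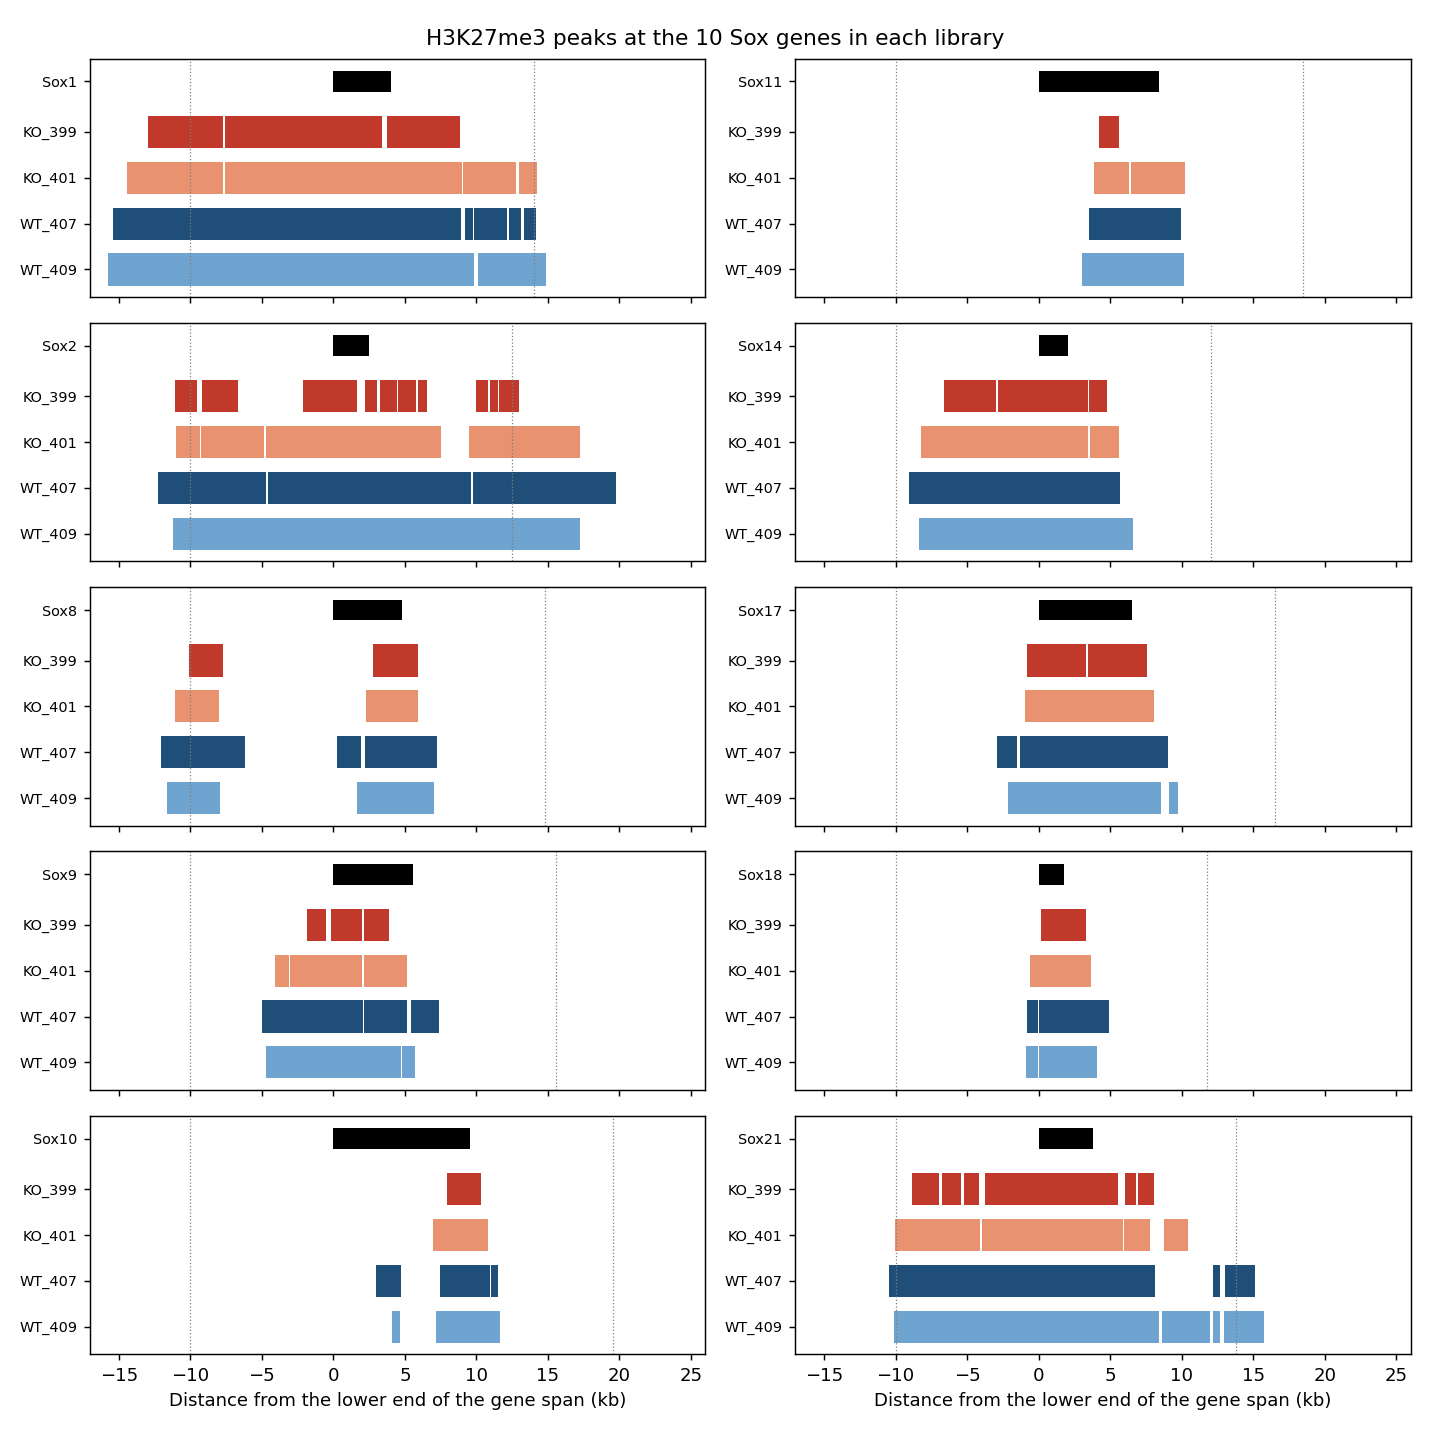
H3K27me3 peaks (coloured bars) of each library at the 10 Sox genes, with KO above WT, drawn by distance in kb from the lower end of the gene span (black bar), and dotted lines at the 10 kb window. WT_409 has 1 peak across Sox2 where KO_399 has 10, and the KO_399 peak at Sox11 is 1399 bp long.

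Within their own lists the Sox peaks differed widely in rank. The widest peak at Sox1 ranked 48 of 6542 in KO_399, 42 of 7653 in KO_401, 33 of 11930 in WT_407 and 23 of 9838 in WT_409. At Sox11 the ranks were 4026, 2006, 1025 and 761 in the same libraries. By the fold that the authors' caller gave each peak, the strongest peak at Sox21 lay at the 90.0 and 98.8 percentiles of the KO_399 and KO_401 lists and at 99.7 and 99.1 in WT_407 and WT_409. Sox10 lay at 44.0 and 66.4 in KO_399 and KO_401, against 91.7 and 85.5 in WT_407 and WT_409. Lists of different lengths make such ranks a description and not a change.

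Because the lists differ in size, the lengths were also compared after making them equal. When every list was held to an equal number of peaks, those with the highest −log10 q, 7 of the 10 Sox genes had fewer bases in both KO libraries, against 65.7% of the genes with the mark (4167 of 6339), and the sum was 79.5% of WT. None of the 10 was then higher in both KO libraries, against 0.0473% of genes. When every list was held to an equal covered length, 6 had fewer (Sox1, Sox2, Sox9, Sox14, Sox17 and Sox21), against 30.7% of genes with the mark in any library (1489 of 4848). The sum was 79.4% of WT. The differences at the other 4 were then -601 bp at Sox8, -860 bp at Sox10, -2512 bp at Sox11 and -747 bp at Sox18. Sox1 counted by a narrow margin, with 18886 bp in KO_401 against 18920 bp in WT_407. The share over genes with the mark in all 4 libraries was not computed for equal lists. None of the 10 was higher in both KO libraries under equal length, where 12.0% of the same 4848 genes were. Whether the share among the Sox genes differs from that of other genes of like width was not tested.

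H3K4me3 was compared in the same way, and few of these genes had any. Sox1, Sox2, Sox10, Sox11, Sox14 and Sox17 had no H3K4me3 peak within 10 kb in any of the 4 libraries. Over all protein-coding genes 71.7% had one in any library and 66.8% in all 4, and among the 10 Sox8 and Sox18 had one in all 4. Neither genotype stood above the other in the sum, at 8734 and 5439 bp in KO_399 and KO_401 against 6768 and 6127 bp in WT_407 and WT_409. The KO mean was 109.9% of WT, and 84.4% without KO_399. More bases in both KO libraries were found at 1 gene, Sox18 (against 21.7% of the 15693 genes with H3K4me3 in any library), and fewer at none (against 3.54% of them).

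Much of this H3K4me3 belonged to neighbours. The lower end of Lmf1, 8488 bp from the upper end of Sox8, had a peak of 1474 and 1393 bp in KO_399 and KO_401 and of 1301 and 1351 bp in WT_407 and WT_409. The peak over the lower end of Tcea2, 8657 bp above Sox18, measured 1939 and 1699 bp in KO and 1697 and 1751 bp in WT. The differences in the whole Sox18 window (4097 and 3658 bp in KO_399 and KO_401, against 3651 and 3652 bp in WT_407 and WT_409) thus include those at Tcea2. The difference of means there was 226 bp (exact permutation p = 0.333, n = 2 each), which was 6.5 bp without KO_399 and 445.5 bp without KO_401. With the ends of other protein-coding genes left out, the genotypes overlapped. The Sox18 window then held 1843 and 1718 bp in KO_399 and KO_401, against 1727 and 1581 bp in WT_407 and WT_409. Within 2 kb of the span, H3K4me3 was found in all 4 libraries at Sox18 alone, against 62.3% of protein-coding genes.

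At Sox18 an H3K4me3 peak lay over the upper part of the gene in every library, and all of its bases there were under H3K27me3 of the same mouse. The bases under both marks were 1245 and 1159 bp in KO_399 and KO_401, against 1174 and 999 bp in WT_407 and WT_409, which overlap (exact permutation p = 0.667, n = 2 each). WT_409 listed this stretch as 2 peaks. Sox18 was the 1 gene of the 10 with bases under both marks in all 4 libraries, against 12.0% of all genes, and 4 had such bases in any library, against 22.7%. Another short H3K4me3 peak stood between Sox18 and Tcea2, with 598 and 559 bp in KO and 553 and 582 bp in WT, in all 4 libraries and outside any H3K27me3 peak. Of 6 endothelial markers, H3K4me3 was near 5 and 4 in KO_399 and KO_401 and near 3 and 2 in WT_407 and WT_409, with summed lengths of 6199 and 2747 bp in KO and 3504 and 2894 bp in WT and none at Emcn, and their part in the Sox18 signal was not tested.

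At the other 3 genes H3K4me3 was weak and came and went between libraries. A peak over the Sox8 start measured 1328 bp in KO_399, 1040 bp in WT_407 and 1124 bp in WT_409 and was not listed in KO_401. The noncoding gene Cerox1 lies 125 bp from that start, and the peak covers both, so it cannot be assigned to either. Sox21 had 1008 and 388 bp in KO_399 and KO_401, against 776 and 0 bp in WT_407 and WT_409, and the KO_401 peak ended 123 bp short of the start. These peaks also overlap the noncoding gene Gm4675, whose lower end lies 2999 bp above that of Sox21, so they cannot be assigned to Sox21 alone. Sox9 had 827 bp in KO_399 and no peak in the other 3 libraries. KO_399 had the longest H3K4me3 list and H3K4me3 at all 5 stromal markers, and the part of either in this peak was not tested. The Sox9 peak was not kept with equal peak numbers or with a −log10 q of at least 10. The authors' fold was 5.0 for the Sox9 peak and 5.0 for the Sox21 peak of KO_401, at the edge of what the lists keep, and 6.0 to 8.7 for the Sox8 peaks. The libraries without these peaks had 13.6 to 15.1 reads as the least that a fold of 5 needs, so weaker H3K4me3 was not detectable there.

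**Figure D4:**
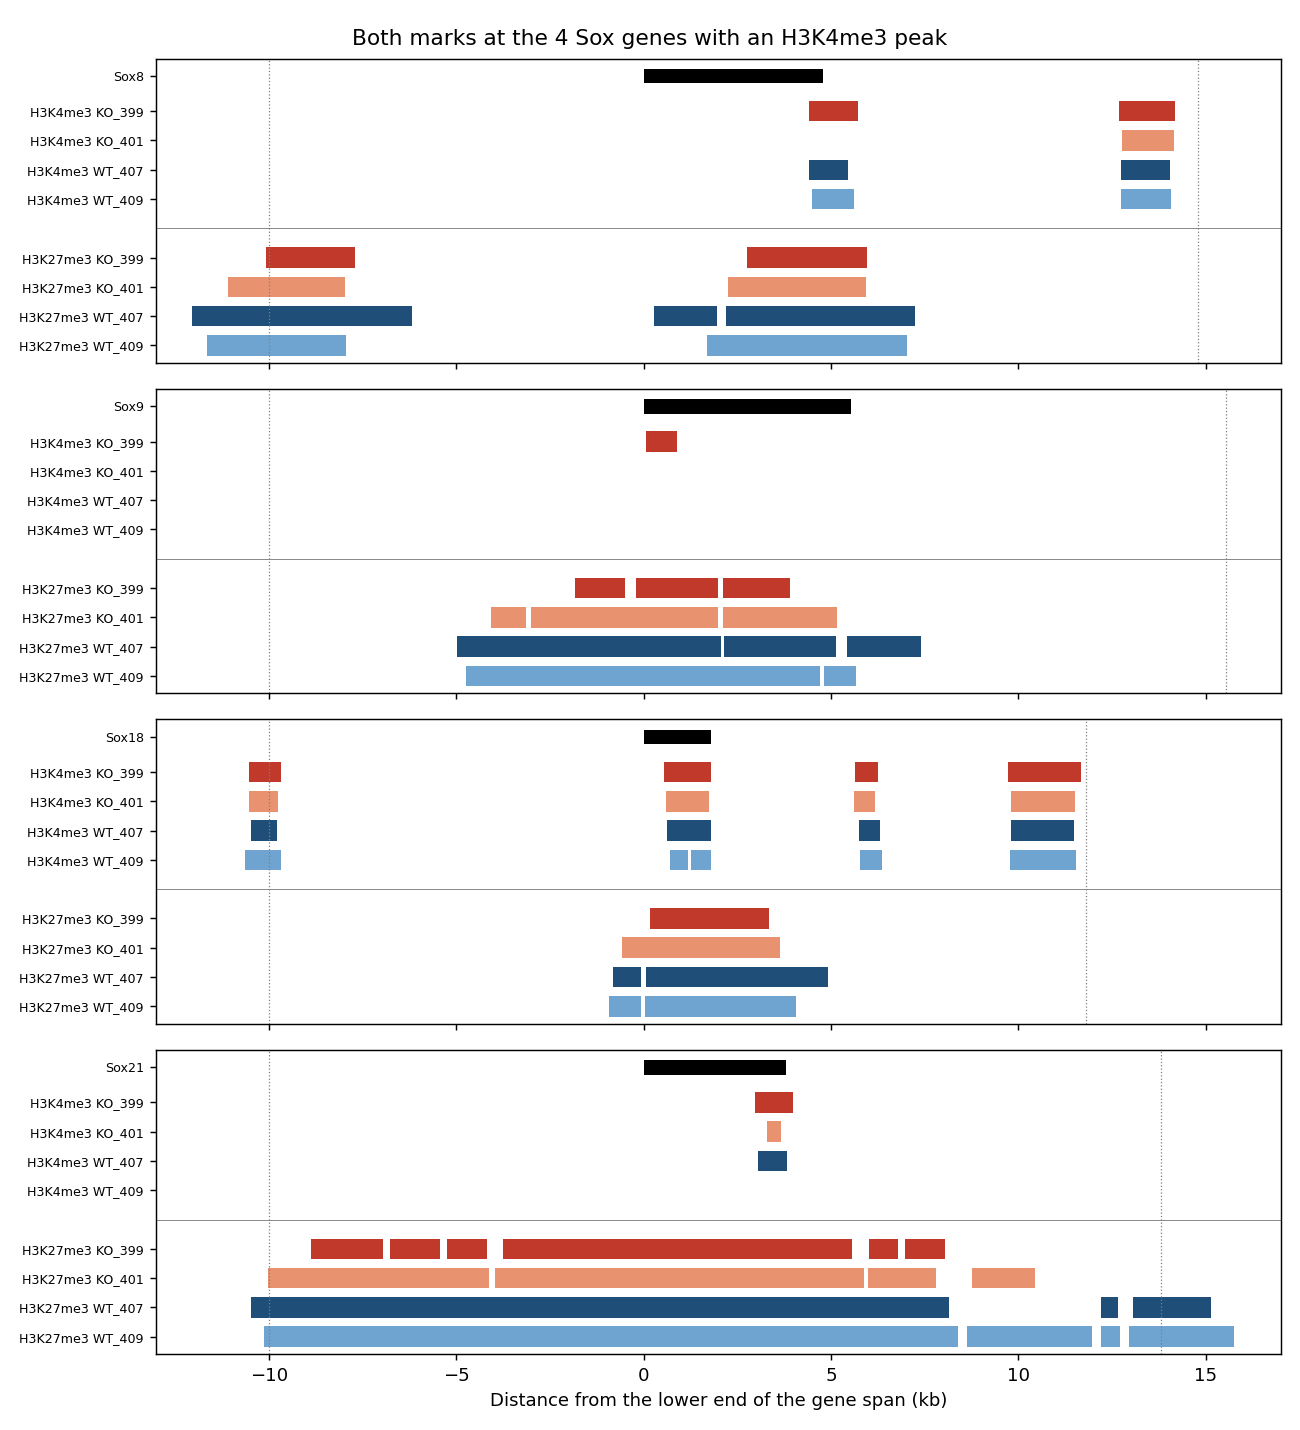
H3K4me3 peaks (upper 4 rows of each panel) and H3K27me3 peaks (lower 4 rows) at Sox8, Sox9, Sox18 and Sox21, KO above WT, by distance in kb from the lower end of the gene span (black bar). Every H3K4me3 peak on the 4 genes stands above an H3K27me3 peak of the same mouse, and the rightmost peaks at Sox8 and Sox18 stand at Lmf1 and Tcea2.

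Bases under both marks were set side by side last. Every base of H3K4me3 within 2 kb of a Sox gene lay under H3K27me3 of the same mouse, 4408 bp in KO_399, 1547 bp in KO_401, 2990 bp in WT_407 and 2123 bp in WT_409. KO averaged 2978 ± 2023 bp and WT 2557 ± 613 bp (SD, n = 2 each), so the libraries of 1 genotype differed more than the genotypes did. The KO mean was 116.5% of WT, and 60.5% without KO_399, the library with the highest H3K4me3 background. Among the 6 genes with a listed start, an H3K27me3 peak covered the start in all 4 libraries at 5, against 10.7% of 14731 genes with 1 listed start. An H3K4me3 peak covered it in all 4 at none of the 6, against 51.8% of those genes.

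The remaining 10 genes of the family (Sox3, Sox4, Sox5, Sox6, Sox7, Sox12, Sox13, Sox15, Sox30 and Sry) include factors with known roles in blood. H3K27me3 was in all 4 libraries at 8 of them, against 21.2% of all genes. Of these 8, 7 had fewer bases in both KO libraries, near the 82.7% of genes with the mark in all 4. H3K4me3 was in all 4 at 7 of the 10, near the 66.8% of all genes. Sox4, a factor of lymphoid progenitors, had 7778 and 7077 bp of H3K4me3 in KO_399 and KO_401, against 7263 and 7117 bp in WT_407 and WT_409. Its H3K27me3 was 2877 and 6007 bp in KO, against 4218 and 6986 bp in WT, which overlap. Sox6, which silences embryonic globin in red cell precursors, had 9780 and 11282 bp of H3K27me3 in KO, against 11963 and 13679 bp in WT. The X-linked neural gene Sox3 had no H3K4me3 peak and had 360 and 4557 bp of H3K27me3 in KO_399 and KO_401, against 9257 and 9215 bp in WT_407 and WT_409, or 26.6% of WT (49.3% without KO_399 and 3.9% without KO_401). Sry and Sox15 had no H3K27me3 peak in any library.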

How the data were processed

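Per the labels' protocols, fixed chromatin was sheared and sequenced with reads of 75 bp. The submitters' processing notes name mm10, Bowtie2 as well as MACS2, and FastQC, SAMtools, Trim Galore and deepTools, without versions. No source used here says whether peaks were called against the input libraries, which are not analysed here. The authors deposited 1 narrowPeak list per library, with peak positions, a score, a fold and the −log10 of the p-value and q-value. The fold is the ratio of summit reads to background, with 1 added to both. The deposited peak numbers skip and every deposited fold is above 5, so the lists hold part of the called peaks. A broad domain may appear as several narrow peaks. The deposited values per peak were used to rank or filter within a list.

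Gene spans came from RefSeq (GRCm38.p6). Bases covered by peaks, peak widths, and bases under both marks were computed with Python 3.11.15, numpy 2.4.6, pandas 2.3.3 and scipy 1.17.1, and the interval functions were tested on simulated data. The 2 KO and 2 WT libraries of a mark were compared per gene by a two-sided exact permutation test (6 labelings, smallest p 0.333). A gene counts as lower when both KO values lie below both WT values. Summit reads and background were recovered from the fold and the −log10 p within 0.001 for 100% of H3K27me3 and H3K4me3 summits. All 10 members are named, other genes only from the Sox family, from neighbours within 10 kb from a list of known partners and targets, and from lists of cell type markers. The members and lists were chosen with earlier results of these data known. For 4 members (Sox9, Sox10, Sox17 and Sox18) no listed start was used. Alternatives were other windows, stricter lists, equal lists, neighbouring gene ends left out, and each library left out.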

Additional observations from a re-analysis of the deposited data

How the results depend on the processing

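The lower H3K27me3 length at the Sox genes kept its direction under every alternative tried: all 120 differences of single genes under the alternatives were negative. These differences re-use the same 4 lists and are not independent. As deposited, 0 of the 7375 genes with the mark were higher in both KO libraries, so the sign does not set the Sox genes apart. The count of 9 genes lower in both KO libraries was 7 in the 2 kb window, where 4061 of the 5936 genes with the mark were lower. It was 7 with equal peak numbers, against 65.7% of genes, and 6 with equal length, against 30.7%. With gaps bridged it was 8, and no share over all genes was computed. The sum in KO stood at 75.1% to 81.2% of WT under other windows, a −log10 q of at least 10, equal lists, left-out neighbours and bridged gaps, and at 37.7% with a deposited fold of at least 10. Leaving out 1 library gave 64.1% to 87.5% for covered bases and 39.1% to 66.9% for the widest peak. With a fold of at least 10, H3K27me3 covered the start in all 4 libraries at 0 of the 6 genes, against 5 as deposited; such a filter removes whole domains from a list. For H3K4me3 the direction was not stable. The sum in KO was 109.9% of WT, 82.1% with the same covered length, and 84.4% to 135.5% with 1 library left out. Bases under both marks were at 116.5% of WT, at 37.6% with the same covered length, and at 60.5% to 172.4% with 1 library left out (99.6% without WT_409). With a fold of at least 10, WT had no base under both marks, so no value could be given. The cause of these shifts was not tested. No paired analysis was possible because KO and WT libraries share no mouse number. With 2 mice per genotype the exact permutation test cannot go below 0.333, and depth is known only through the recovered background.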

Other observations

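Known partners and targets of Sox factors were read in the same windows. Of 17 such genes, 13 had H3K27me3 in any library and 12 in all 4, with fewer bases in both KO libraries at 9 and more at none, against 71.2% of all genes with the mark. At Notch1, Ret, Amh and Cldn5 the genotypes overlapped. Pou3f2, Nes, Col2a1 and Prox1, given next, are among the 9 with fewer. Pou3f2, a POU factor that works with Sox2 and Sox11 in neurons, had 14394 and 20481 bp in KO_399 and KO_401, against 22490 and 22144 bp in WT_407 and WT_409. Nes, the Sox2 target that encodes nestin, had 3482 and 6304 bp in KO, against 14724 and 11843 bp in WT, or 36.8% of WT, the lowest share of the 12. Col2a1, the cartilage collagen that Sox9 switches on, had 8851 and 10660 bp in KO, against 11957 and 12773 bp in WT, and no H3K4me3 in any library. Prox1, the target of Sox18 in lymph vessels, had 7567 and 8295 bp in KO, against 10212 and 9088 bp in WT. The melanocyte gene Dct was the 1 gene of the list with fewer H3K4me3 bases in both KO libraries, at 908 and 440 bp in KO, against 1030 and 1803 bp in WT, and Hey1 the 1 with more, at 2367 and 1945 bp in KO, against 1887 and 1908 bp in WT (exact permutation p = 0.333 for both, n = 2 each). Over the genes with H3K4me3 in any library, 3.54% had fewer and 21.7% had more. The Hey1 difference of 258.5 bp was 47.5 bp without KO_399, and the Dct difference of -742.5 bp was -356 bp without WT_409.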
